A study of Mus musculus with 8 samples.

Results

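Sphingolipids are membrane lipids built on a long-chain base, and the transcripts of 10 enzymes that make them were examined in mouse collecting duct cells kept in high-salt medium. The enzymes were taken by gene symbol as fixed steps of the pathway: Sptlc1, Sptlc2, Kdsr, Cers2, Cers5, Cers6, Degs1, Sgms1, Sgms2 and Ugcg. Each symbol matched exactly 1 of the 15288 genes in the table of counts, and all 10 were among the 14024 genes expressed highly enough to be tested.

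The cells were the IMCD line, derived from the inner medullary collecting duct, the last stretch of the renal tubule, where the fluid around the cells can become strongly hypertonic. All cultures were grown in high-glucose DMEM with serum to confluency, which the series' design text gives as 90%, then moved to DMEM lacking serum for 12 h, so serum withdrawal was common to both groups. The control group (n = 4 libraries, replicates 1 to 4) had no NaCl added and the NaCl group (n = 4, replicates 5 to 8) had 100 mmol NaCl added, an amount given in the labels with no volume. The labels do not say whether the libraries of a group came from separate cultures, so the p-values measure the spread between these libraries, which may be technical, and they name no clone or subline of IMCD.

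In the endoplasmic reticulum, serine palmitoyltransferase joins serine to a fatty acid, a reductase turns the product into a long-chain base, a ceramide synthase adds a second fatty acid, and a desaturase completes ceramide. Ceramide then receives a head group: phosphocholine gives sphingomyelin, glucose gives glucosylceramide and the glycosphingolipids built on it, and galactose gives galactosylceramide, which can be sulfated to sulfatide. Renal epithelia are known for a high content of sulfatide and other glycosphingolipids.

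With NaCl, 3 of the 10 enzymes fell, 1 rose and 6 did not pass the test. Ugcg, which encodes glucosylceramide synthase, fell by 33.7%, the most of the 10. Sgms1, which encodes a sphingomyelin synthase, fell by 16.3%, and Cers6, which encodes a ceramide synthase, fell by 14.9%, a call that was lost in a fit with a linear drift over the library numbers. Cers5, another ceramide synthase gene, rose by 10.3%, a call that was lost when any of 4 single libraries was left out. Sptlc1, Sptlc2, Kdsr, Cers2, Degs1 and Sgms2 did not pass the test in either direction. Outside these 10, Ugt8a and Gal3st1, whose products make galactosylceramide and sulfatide, rose 2.26-fold and 1.82-fold.

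The 4 called genes were 40% of the 10, where 34.1% of all tested genes were called, 16.9% higher and 17.2% lower, so the number of calls is near the background. Here a gene counts as called where edgeR's quasi-likelihood test, with Benjamini-Hochberg adjustment over all 14024 genes, gave an adjusted p under 0.05. Control and NaCl libraries were fully separated for 3 of the 10 enzymes, where this held for 33.4% of all tested genes. The median log2 fold change of the 10 was -0.05, beside 0.003 over all tested genes, and none changed by 2-fold. The summed level of the 10 genes was 832 to 875 CPM (counts scaled to a common library total) in the controls and 827 to 843 CPM with NaCl, so the sums overlapped. In bulk RNA, fewer cells that express a gene and less RNA per cell cannot be told apart.

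Ugcg and Ugt8a, whose enzymes both use ceramide, moved in opposite directions, as did the related Cers5 and Cers6. The upstream sequences of these 4 genes are shown because they form pairs with related products whose transcripts moved apart. Each is the 250 bases before the gene start in RefSeq (GRCm38.p6), 5′ to 3′ on the gene's strand, with GGGCGG (the GC box bound by Sp1 family factors) and TGGAAA, on either strand, in capitals. The windows are chr4:59189300-59189549 (+) for Ugcg, chr3:125938653-125938902 (-) for Ugt8a, chr15:99772516-99772765 (-) for Cers5 and chr2:68861191-68861440 (+) for Cers6. GENCODE M21 places the outermost start of Ugcg at 59189257 and that of Cers5 at 99772885, so other transcript models of these 2 genes begin upstream of the windows. For Ugt8a its outermost start is 125938619, downstream of the window and of the RefSeq start.
Ugcg: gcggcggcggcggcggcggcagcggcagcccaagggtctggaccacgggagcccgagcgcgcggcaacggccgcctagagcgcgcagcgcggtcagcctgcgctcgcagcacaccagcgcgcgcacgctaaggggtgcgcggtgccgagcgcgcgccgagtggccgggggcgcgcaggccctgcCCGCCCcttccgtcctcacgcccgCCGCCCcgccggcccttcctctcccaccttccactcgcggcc
Ugt8a: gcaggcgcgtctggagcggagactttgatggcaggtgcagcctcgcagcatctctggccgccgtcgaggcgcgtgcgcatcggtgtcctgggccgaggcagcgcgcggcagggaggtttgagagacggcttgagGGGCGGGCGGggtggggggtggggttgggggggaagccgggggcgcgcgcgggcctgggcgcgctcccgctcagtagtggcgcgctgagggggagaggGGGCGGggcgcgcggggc
Cers5: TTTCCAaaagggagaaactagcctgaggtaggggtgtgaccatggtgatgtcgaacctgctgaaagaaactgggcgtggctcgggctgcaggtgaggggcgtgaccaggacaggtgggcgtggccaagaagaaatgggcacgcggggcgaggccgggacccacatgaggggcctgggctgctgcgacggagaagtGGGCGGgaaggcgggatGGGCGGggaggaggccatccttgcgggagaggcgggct
Cers6: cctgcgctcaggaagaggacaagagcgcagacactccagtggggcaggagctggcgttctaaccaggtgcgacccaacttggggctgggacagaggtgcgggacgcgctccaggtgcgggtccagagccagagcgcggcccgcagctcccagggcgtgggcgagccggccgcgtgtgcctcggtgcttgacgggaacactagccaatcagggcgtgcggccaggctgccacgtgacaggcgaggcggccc

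TGGAAA is the invariant core of the longer TonE motif, to which the tonicity factor NFAT5 binds, so the matches of these 2 searches overlap. No TonE match was found in the windows shown. The 10 enzymes have 19 RefSeq start windows, of which 2 (10.5%) hold a TonE match, both of Sgms2, beside 4.31% of all 32841 windows of this length. TGGAAA was found in 4 windows (21.1%), of Cers5, Sgms1 and Sgms2, beside 18.6% of all windows. GGGCGG was found in 10 windows (52.6%), covering 8 of the 10 genes, beside 32.7% of all windows. Cers6 and Degs1 had none. The 19 windows held 40 to 80.4% G and C, most of them above the median of all windows (52.4%). The comparison for GGGCGG does not allow for this difference. These are matches of letters in short windows and were not measured as binding.

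The levels of the 10 genes were compared per length, as CPM per kilobase of annotated exon. Cers2 was the highest at 56.9 ± 1.93 in the controls and 54.7 ± 0.715 with NaCl (SD, n = 4 each). It was followed by Degs1, Cers5, Sptlc2, Sptlc1, Sgms2, Ugcg, Sgms1 and Cers6, and Kdsr was the lowest at 2.48 ± 0.192 and 2.73 ± 0.172. By this measure the order was the same in both groups, and no neighbours in it overlapped between libraries within a group. The nearest neighbours with NaCl were Ugcg (5.18 to 5.86) and Sgms1 (4.73 to 5.01), which lay further apart in the controls (8.15 to 8.67 and 5.51 to 6.28). These ranges cover the spread between libraries and not the choice of exon length. All annotated exons together cover 10546 bases for Sgms1, 5212 for Ugcg and 6227 for Sgms2. Their longest transcripts have 4036, 4012 and 5801 bases. With those lengths Sgms1 would lie above Ugcg. The order, and whether it is the same in both groups, thus depends on the length chosen. None of the 10 except Cers2 shared stretches of at least 75 bases at 98% identity with transcripts of other genes. Cers2 shared 3.38% of its longest transcript with Setdb1, which it overlaps on the opposite strand. The use of strand in counting is not given in the sources used here, so reads in that overlap cannot be told apart. Among the further pathway genes named below with their CPM, Cers4 (9.38%), Sptssa (5.94%), Cert1 (5.05%), Acer3 (2.15%) and Elovl6 (1.6%) shared part of their longest transcript in this way.

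**Figure D1:**
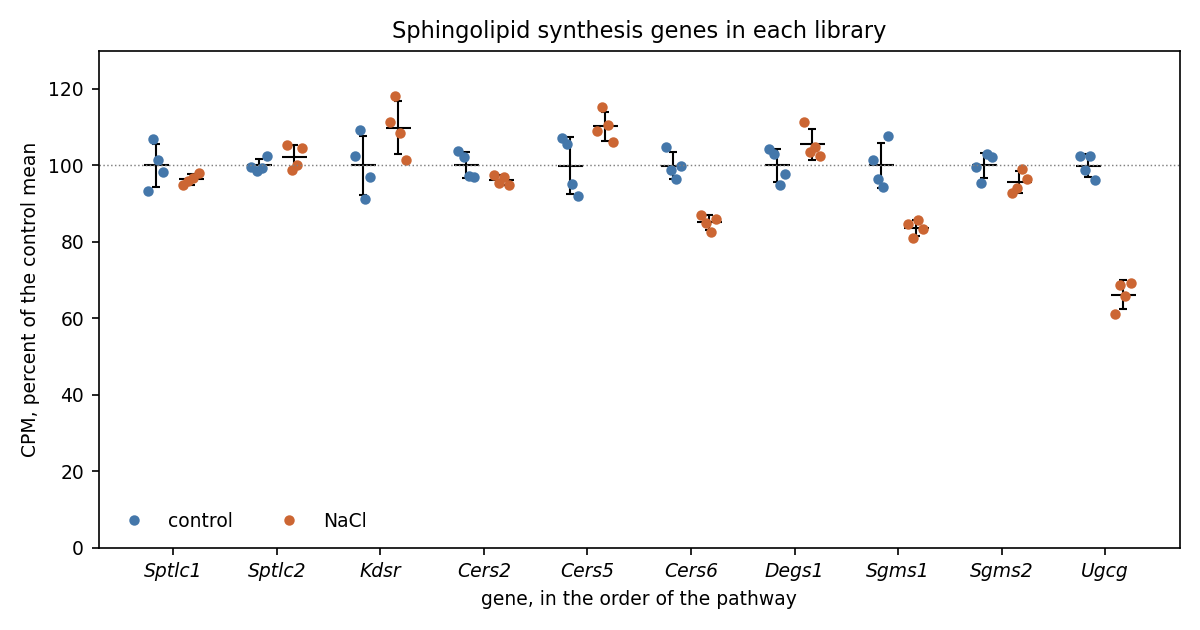
The y axis gives the level (CPM) of each of the 10 enzymes in each library as a percent of that gene's control mean, and points are libraries, with black marks for the mean and SD of 4. Points of Cers6, Sgms1 and Ugcg with NaCl lie below all of their controls, and the groups overlap for the other 7 genes.

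The plot of levels by library shows overlapping groups for Sptlc1, Sptlc2, Kdsr and Degs1. Sptlc1 (ENSMUSG00000021468, chr13:53332748-53377397, GRCm38) encodes a subunit common to all forms of serine palmitoyltransferase, the committed enzyme of the pathway. Its levels were 46.2, 52.9, 50.2 and 48.7 CPM in control replicates 1 to 4 and 46.95, 47.5, 47.9 and 48.6 CPM in NaCl replicates 5 to 8. The NaCl libraries lay inside the range of the controls. The log2 fold change was -0.05 (95% interval -0.15 to 0.05; edgeR adjusted p = 0.43). Sptlc2 (ENSMUSG00000021036, chr12:87305058-87388355) encodes a catalytic subunit. It had 131, 130, 131 and 135 CPM in the controls and 139, 130, 132 and 138 CPM with NaCl, a log2 fold change of 0.03 (interval -0.04 to 0.10; adjusted p = 0.517). The groups overlapped, with the control mean at 131.6 ± 2.13 CPM and the NaCl mean at 134.5 ± 4.27 CPM (SD, n = 4).

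Kdsr (ENSMUSG00000009905, chr1:106720459-106759727) encodes the reductase that follows. Its levels were 20.7, 22.1, 18.4 and 19.6 CPM in the controls and 22.5, 23.9, 21.9 and 20.5 CPM with NaCl. The NaCl libraries were the higher on average, but control replicate 2 lay above 2 of them. The log2 fold change was 0.13 (0.135; interval -0.01 to 0.285; edgeR adjusted p = 0.158). Degs1 (ENSMUSG00000038633, chr1:182275772-182282804) encodes the desaturase that turns dihydroceramide into ceramide. It had 117, 115, 106 and 109 CPM in the controls and 125, 116, 117 and 115 CPM with NaCl, with a log2 fold change of 0.08 (interval -0.01 to 0.16; adjusted p = 0.155). The upper controls and the lower NaCl libraries overlapped. Degs1 passed the test in a fit with a further term for a linear drift over the library numbers 1 to 8 (log2 fold change 0.22, adjusted p = 0.0119).

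The ceramide synthases differ in the fatty acid that they add. Cers2 adds very long chains, and Cers5 and Cers6 add palmitoyl and chains of similar length. Cers2 (ENSMUSG00000015714, chr3:95314791-95323599) had 217, 213.5, 203 and 203 CPM in the controls and 204, 199.5, 203 and 198.5 CPM with NaCl. The groups overlapped, and the log2 fold change was -0.06 (-0.055; interval -0.13 to 0.015; edgeR adjusted p = 0.22). Cers5 (ENSMUSG00000023021, chr15:99734881-99772885) had 134, 132, 119 and 115 CPM in the controls and 136, 144, 138 and 132.5 CPM with NaCl. Control replicate 1 lay above the lowest NaCl library, and the log2 fold change was 0.14 (SE 0.048; adjusted p = 0.0304). Cers6 (ENSMUSG00000027035, chr2:68861441-69114282) had 39.9, 37.5, 36.7 and 37.9 CPM in the controls and 33.1, 32.3, 31.3 and 32.7 CPM with NaCl. Every NaCl library lay below every control, and the fall was 0.23 on the log2 scale (SE 0.049; adjusted p = 0.00147).

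Neither of these 2 calls held in every fit. The Cers5 call was lost without control replicate 3 (adjusted p = 0.102), control replicate 4 (0.0939), NaCl replicate 6 (0.102) or NaCl replicate 7 (0.0722), with log2 fold changes of 0.10 to 0.14 in those fits. Cers5 also differed among the libraries of a group: with the library number centred within its group as a covariate, its level fell by 0.05 on the log2 scale per number (edgeR adjusted p = 0.0269), where 13.2% of all tested genes were called for this term. In that fit both genes stayed called between the groups (edgeR adjusted p = 7.12e-04 for Cers5 and 1.70e-04 for Cers6). The linear drift across both groups acted differently on the 2 genes. Under it the Cers5 call was kept and its rise was larger, at 0.34 on the log2 scale (adjusted p = 3.67e-04). The Cers6 call was lost with this drift (log2 fold change -0.16, adjusted p = 0.26).

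A ratio of 2 genes within a library does not depend on how libraries are scaled. The ratio of Cers6 to Cers5 counts was 0.305 ± 0.0189 in the controls and 0.235 ± 0.0114 with NaCl (SD, n = 4 each). All controls (0.285 to 0.33) lay above all NaCl libraries (0.224 to 0.247). The ratio of Cers2 to Cers5 was 1.68 ± 0.0712 and 1.46 ± 0.053, and again all NaCl libraries lay lower. The ratios of Sptlc2 to Sptlc1 (2.66 ± 0.173 and 2.82 ± 0.0985) and of Degs1 to Kdsr (5.55 ± 0.232 and 5.33 ± 0.342) overlapped between the groups.

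Sphingomyelin is made by 2 enzymes, Sgms1 in the Golgi and Sgms2 largely at the plasma membrane. Sgms1 (ENSMUSG00000040451, chr19:32122727-32389714) had 62.5, 59.5, 58.1 and 66.2 CPM in the controls and 52.2, 49.8, 52.8 and 51.4 CPM with NaCl. All NaCl libraries lay below all controls, and the fall was 0.26 on the log2 scale (SE 0.047; edgeR adjusted p = 4.86e-04). Sgms2 (ENSMUSG00000050931, chr3:131318985-131491411) had 61.8, 59.3, 64.0 and 63.4 CPM in the controls and 57.7, 58.4, 61.6 and 60.0 CPM with NaCl. The groups overlapped and the gene did not pass the test (log2 fold change -0.06, interval -0.15 to 0.025; adjusted p = 0.265). The ratio of Sgms2 to Sgms1 counts was 1.01 ± 0.0621 in the controls and 1.15 ± 0.0321 with NaCl, and the highest control (log2 ratio 0.138) lay just under the lowest NaCl library (0.144).

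Ugcg (ENSMUSG00000028381, chr4:59189257-59222833) makes glucosylceramide, the entry to most glycosphingolipids. Its levels were 45.2, 43.55, 45.2 and 42.5 CPM in the controls and 27.0, 30.3, 29.1 and 30.6 CPM with NaCl. The groups were far apart against their spread, at 44.1 ± 1.33 and 29.2 ± 1.64 CPM (SD, n = 4 each). The log2 fold change was -0.59 (SE 0.053; interval -0.705 to -0.48; edgeR adjusted p = 2.29e-07), and 10.1% of all tested genes had a larger absolute value. The ratio of Ugcg to Sgms1 counts was 0.719 ± 0.0568 in the controls and 0.568 ± 0.0419 with NaCl, and all NaCl libraries lay lower. The 3 genes whose levels followed Ugcg most closely across the 8 libraries were Adamts4, Gadd45b and H2-D1. Their centred log2 CPM differed from that of Ugcg by a root mean square of 0.0435, 0.0454 and 0.0536, where the median gene differed by 0.332. They fell by 0.64, 0.64 and 0.58 on the log2 scale. The difference between the groups enters the measure that picked them, so these falls are not a separate result.

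The enzyme genes that act on ceramide beside Ugcg, and the genes after it, were examined next from a list of complex glycosphingolipid synthesis. Ugt8a (ENSMUSG00000032854, chr3:125865271-125938619), which encodes galactosylceramide synthase, had 19.1, 22.2, 23.3 and 24.0 CPM in the controls and 55.4, 48.8, 49.0 and 47.2 CPM with NaCl. The lowest NaCl library was above the highest control by far more than the spread within either group (log2 fold change 1.18, SE 0.071; edgeR adjusted p = 3.59e-09). Gal3st1 (ENSMUSG00000049721, chr11:3983636-3999326), which encodes the sulfotransferase that makes sulfatide, had 16.1, 17.3, 18.4 and 17.6 CPM in the controls and 33.8, 30.7, 31.1 and 30.5 CPM with NaCl. The groups again did not overlap (log2 fold change 0.86, SE 0.062; adjusted p = 1.81e-08). Both calls were kept without each library in turn and with the linear drift.

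The ratio of Ugt8a to Ugcg counts was 0.503 ± 0.059 in the controls and 1.72 ± 0.228 with NaCl (SD, n = 4 each). It lay between 0.423 and 0.565 in the controls and between 1.54 and 2.05 with NaCl. This pair was chosen after its values were seen, and the ratio is given as a description. Per kilobase of exon, Ugcg stood at 8.46 ± 0.256 and Ugt8a at 4.89 ± 0.474 CPM in the controls, and at 5.61 ± 0.314 and 11.05 ± 0.803 CPM with NaCl, so Ugt8a was the lower of the 2 in the controls and the higher with NaCl.

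**Figure D2:**
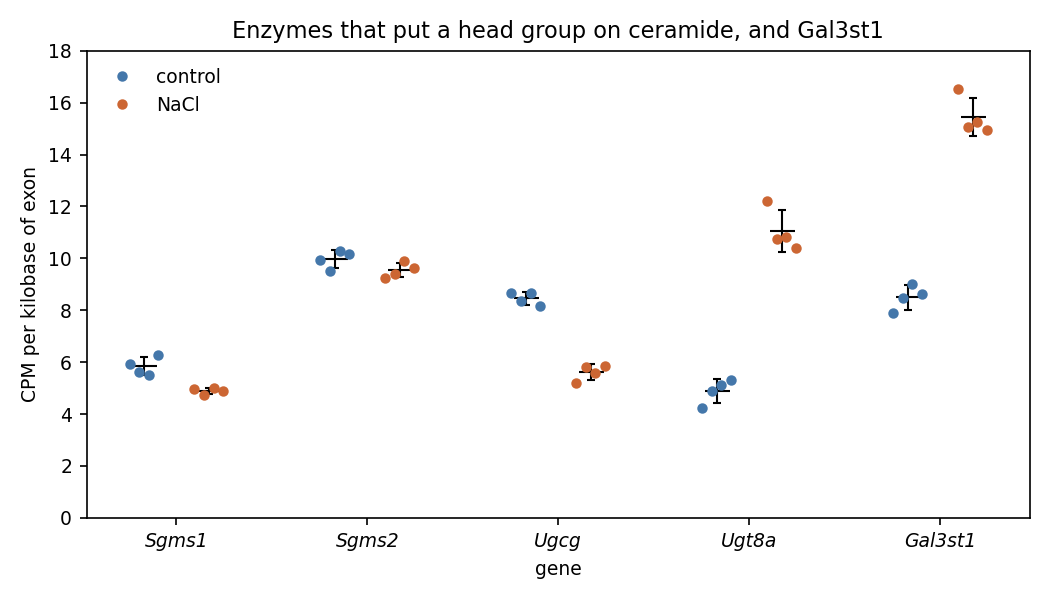
The y axis gives CPM per kilobase of exon in each library for Gal3st1 and for 4 enzymes that place a head group on ceramide. Points are libraries, with black marks for the mean and SD of 4. Ugcg falls from 8.46 to 5.61 on average while Ugt8a rises from 4.89 to 11.05, and the Sgms2 groups overlap.

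**Figure D3:**
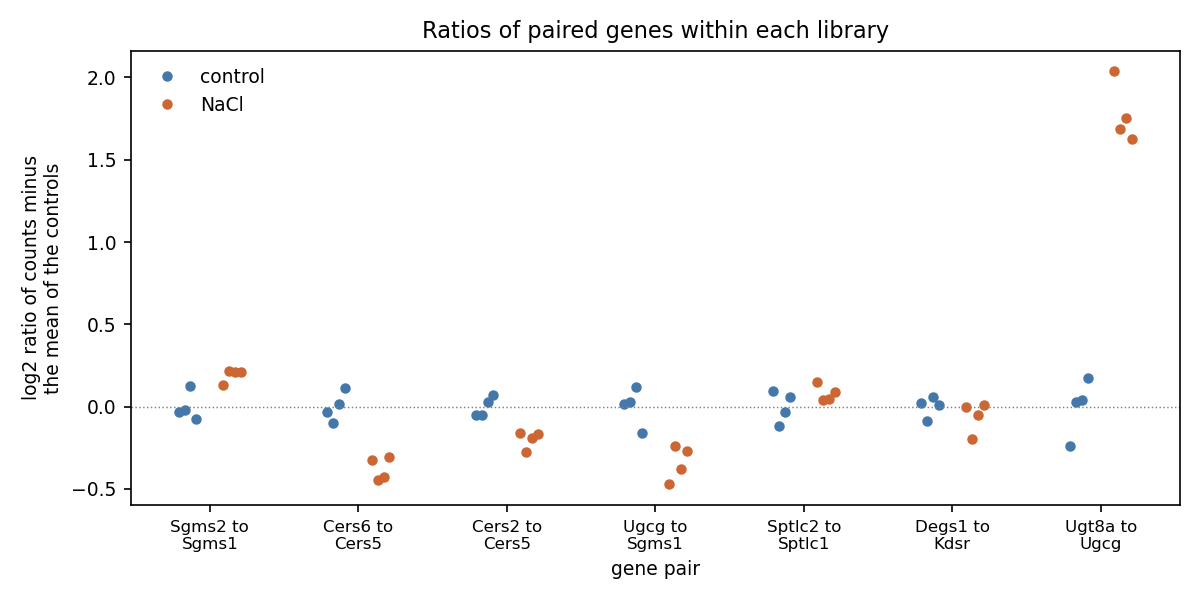
The y axis gives the log2 ratio of counts of 7 gene pairs in each library, minus the control mean of that pair. The Ugt8a to Ugcg points with NaCl lie more than 1.5 above the control mean, the pairs Sptlc2 to Sptlc1 and Degs1 to Kdsr overlap between groups, and the other 4 pairs are separated by less than 0.5 on average.

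Of the 10 tested genes in the glycosphingolipid list, 4 rose and 2 fell (60% called, beside 34.1% of all tested genes), with a median log2 fold change of 0.095, beside 0.003 over all tested genes. St3gal5, which sialylates lactosylceramide at the start of ganglioside synthesis, rose from 45.0 ± 2.38 to 56.0 ± 2.33 CPM (log2 fold change 0.31; edgeR adjusted p = 1.13e-04). St3gal2, another sialyltransferase, had a log2 fold change of 0.11 (adjusted p = 0.0203). The genes that fell were B4galt5 (log2 fold change -0.30, adjusted p = 0.00204) and B4galt6 (-0.15, adjusted p = 0.00355), which encode the lactosylceramide synthases that act on the product of Ugcg. The St3gal2 call was lost without control replicate 2 (0.0605), NaCl replicate 5 (0.0595), NaCl replicate 6 (0.0514) or NaCl replicate 7 (0.0677). With the linear drift B4galt5 (-0.06, SE 0.105, adjusted p = 0.746) and B4galt6 (-0.19, SE 0.0721, adjusted p = 0.0535) no longer passed, the change of B4galt6 being no smaller than without it. St3gal2, B4galt5, B4galt6 and the further genes named below without levels in CPM fell outside the rule for naming genes and were chosen after their values were seen.

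Regulators and relatives of the early enzymes were tested as a list of 8 genes, of which 1 fell and 1 rose (25% called, beside 34.1% of all tested genes; median log2 fold change -0.03). Sptssa, a small subunit that raises the activity of serine palmitoyltransferase, fell from 54.2 ± 1.5 to 41.4 ± 2.36 CPM (log2 fold change -0.39; edgeR adjusted p = 1.28e-05). Its control libraries lay between 53.1 and 56.4 CPM and its NaCl libraries between 39.35 and 44.3 CPM, without overlap. Cers4 rose from 45.5 ± 5.42 to 54.4 ± 3.73 CPM (log2 fold change 0.26; adjusted p = 0.0227), with overlap between the groups. The Cers4 call was lost without control replicate 2 (0.0662), NaCl replicate 7 (0.0632) or NaCl replicate 8 (0.0606), and with the linear drift its direction turned (-0.11). The Ormdl proteins restrain serine palmitoyltransferase, and Ormdl1, Ormdl2 and Ormdl3 had log2 fold changes of -0.095, -0.06 and -0.007, with adjusted p-values of 0.297, 0.456 and 0.926. Across the pathway lists, Sptssb, Gbgt1 and Acer2 were too low to be tested.

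In a list of transfer proteins for ceramide and glycolipids together with the lipid transporters Spns1, Spns2 and Mfsd2b 7 genes were tested, 2 rose and none fell (28.6% called, beside 34.1% of all tested genes; median log2 fold change 0.055). Cert1, which carries ceramide from the endoplasmic reticulum to the Golgi for sphingomyelin synthesis, rose from 102 ± 3.29 to 111 ± 3.24 CPM (log2 fold change 0.12; edgeR adjusted p = 0.0194). Cptp, which carries ceramide 1-phosphate, rose from 19.75 ± 1.3 to 22.5 ± 0.708 CPM (0.185; adjusted p = 0.0351). Cert1 lost its call without control replicate 3 (0.0755) or NaCl replicate 7 (0.069), and Cptp without control replicate 2 (0.0865), 3 (0.113) or 4 (0.0569) or NaCl replicate 5 (0.0868), 6 (0.0516) or 7 (0.0735). With the linear drift their log2 fold changes were 0.15 (SE 0.0695) and 0.32 (SE 0.128), no smaller than without it, with adjusted p-values of 0.117 and 0.0676.

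**Figure D4:**
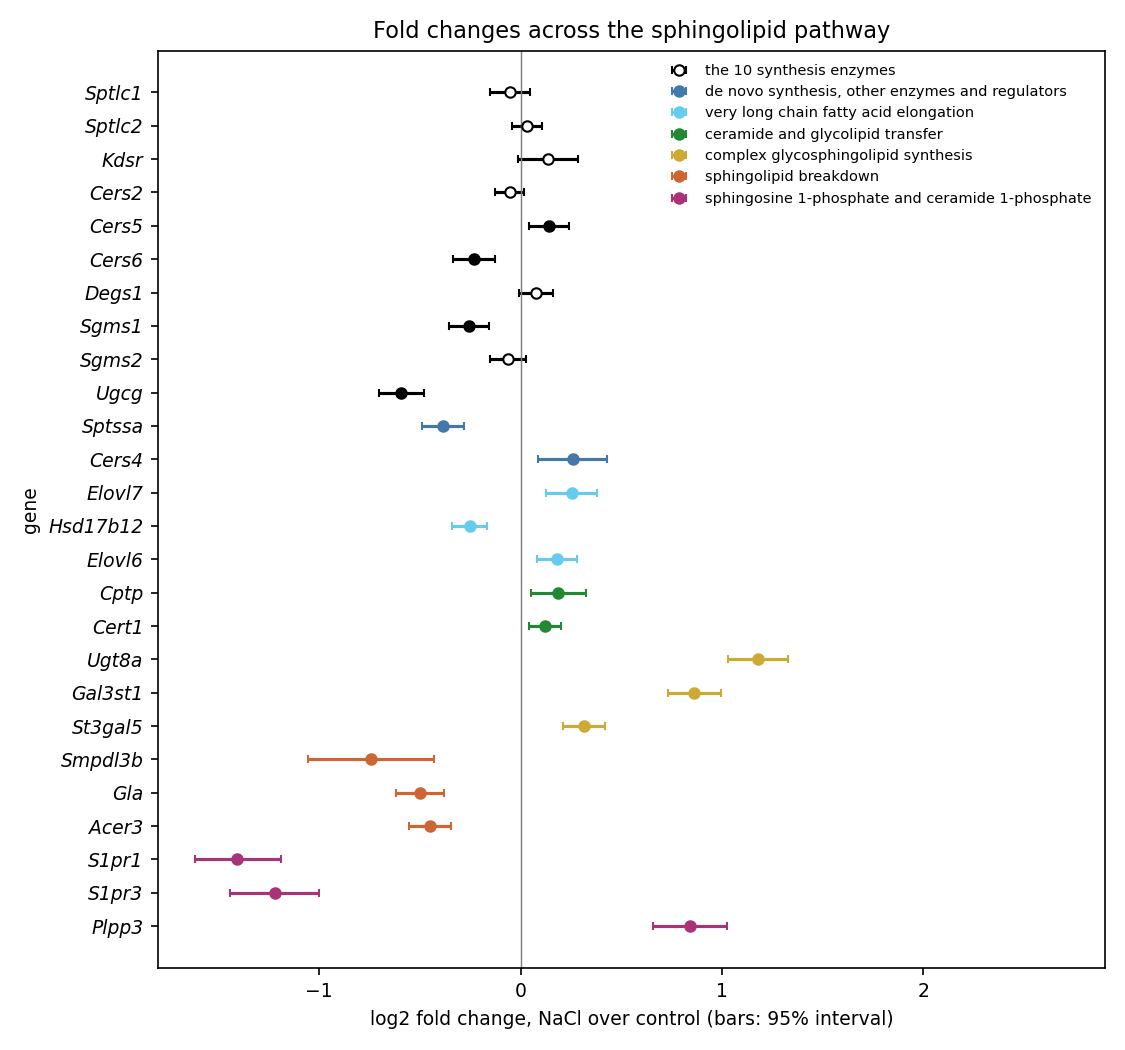
The x axis gives the log2 fold change with NaCl over control and its 95% interval for the 10 enzymes (black) and for up to 3 called genes of each pathway list (colours), with filled points for an adjusted p-value under 0.05. Ugcg at -0.59 is the lowest black point, Ugt8a at 1.18 is the highest of all and S1pr1 at -1.41 the lowest.

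The very long chains that some ceramide synthases add come from a fatty acid elongation cycle. In a list of its enzymes together with acyl-CoA synthetases and acyl-CoA-binding proteins 17 genes were tested, 3 rose and 3 fell (35.3% called, beside 34.1% of all tested genes; median log2 fold change -0.04). The elongase gene Elovl7 rose from 38.35 ± 3.56 to 45.7 ± 0.66 CPM (log2 fold change 0.25; edgeR adjusted p = 0.00338) and Elovl6 from 91.5 ± 5.03 to 104 ± 5.5 CPM (0.18; adjusted p = 0.00657). Hsd17b12, the ketoacyl reductase of the cycle, fell from 124 ± 6.95 to 104 ± 2.13 CPM (-0.25; adjusted p = 1.55e-04). Tecr, the enoyl reductase, rose by 0.13 (adjusted p = 0.0132) on the log2 scale. Elovl5 and Acsl4 had log2 fold changes of -0.13 and -0.12 (adjusted p = 0.0227 and 0.0109). The elongase genes Elovl1 (-0.04, adjusted p = 0.53) and Elovl4 (-0.46, adjusted p = 0.134) did not pass the test. With the linear drift Elovl7, Hsd17b12, Elovl5 and Tecr no longer passed (adjusted p = 0.754, 0.386, 0.971 and 0.877), with log2 fold changes of 0.055, -0.087, -0.006 and -0.017, the last of which turned in direction. Tecr also lost its call without control replicate 2 (0.0563), and Elovl5 without control replicate 2 (0.0557), NaCl replicate 7 (0.0594) or NaCl replicate 8 (0.0633) and with library totals alone (0.0513).

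Breakdown of sphingolipids takes place largely in lysosomes. Of 20 tested genes, 3 rose and 7 fell (median log2 fold change -0.013). The 10 called genes were 50% of this list, beside 34.1% of all tested genes, 16.9% higher and 17.2% lower. Smpdl3b, a relative of acid sphingomyelinase, fell from 8.54 ± 1.33 to 5.13 ± 1.1 CPM (log2 fold change -0.74; edgeR adjusted p = 0.00103). Gla, the lysosomal alpha-galactosidase, fell from 34.0 ± 1.68 to 24.0 ± 0.879 CPM (-0.50; adjusted p = 3.57e-06). Acer3, an alkaline ceramidase, fell from 36.5 ± 0.44 to 26.7 ± 0.478 CPM (-0.45; adjusted p = 2.24e-06). Among the others that fell were Gm2a (-0.435), Asah2 (-0.14) and Asah1 (-0.10), with adjusted p-values of 3.99e-05, 0.013 and 0.0201. The genes that rose were the acid sphingomyelinase gene Smpd1 (0.26, adjusted p = 4.45e-04), its relative Smpdl3a (0.31, adjusted p = 0.00974) and Arsa (0.25, adjusted p = 2.55e-04), the sulfatase that removes sulfate from sulfatide. Without control replicate 2 or NaCl replicate 6 Asah1 no longer passed (0.0631 and 0.0619). With the linear drift Smpdl3b turned in direction (log2 fold change 0.014, adjusted p = 0.974). In that fit Asah1 (-0.077, adjusted p = 0.35), Arsa (0.134, adjusted p = 0.246) and Asah2 (-0.15, SE 0.0785, adjusted p = 0.176) did not pass either, the Asah2 change being no smaller than without the drift.

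Sphingosine released from ceramide can be phosphorylated to a secreted signal, sphingosine 1-phosphate. In this list of 13 tested genes, 4 rose and 4 fell (median log2 fold change 0.006). The 8 called genes were 61.5% of the list, beside 34.1% of all tested genes. The receptor gene S1pr1 had 9.93, 11.8, 11.1 and 9.955 CPM in the controls and 4.07, 3.90, 4.17 and 4.002 CPM with NaCl. All NaCl libraries lay below all controls (log2 fold change -1.41, SE 0.10; edgeR adjusted p = 1.70e-08). S1pr3, another receptor gene, fell from 9.05 ± 0.443 to 3.88 ± 0.322 CPM (-1.22; adjusted p = 1.49e-07), and S1pr2 had a log2 fold change of 0.02 (adjusted p = 0.801). Plpp3, a phosphatase that acts on such lipid phosphates outside the cell, rose from 24.3 ± 3.54 to 43.4 ± 1.48 CPM (0.84; adjusted p = 4.74e-06). Plpp1 (0.34, adjusted p = 3.17e-04), Cerk (0.16, adjusted p = 0.00833) and Sphk2 (0.17, adjusted p = 0.0391) also rose, and Sgpp1 (-0.31, adjusted p = 3.90e-04) and Sgpl1 (-0.12, adjusted p = 0.00903) fell. The Sphk2 call was lost without each library in turn except control replicate 4, with adjusted p-values of 0.0587 to 0.119. With the linear drift Sphk2 turned in direction (-0.007, adjusted p = 0.977), and Sgpl1 (-0.11, SE 0.0609, adjusted p = 0.217) and Cerk (0.21, SE 0.0835, adjusted p = 0.0707) did not pass.

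Total counts were 35.3 to 47.6 M per library. The labelled cell type was checked by its markers. Of 15 markers of collecting duct and ureteric bud, 9 reached 1 CPM in a group, Aqp2, Aqp3, Aqp4, Avpr2 and Scnn1b lay under 1 CPM and Calb1 was not analysed here. The summed level of this list was 533 to 630 CPM in the controls and 747 to 787 CPM with NaCl, with 5 genes higher and 4 lower. Of 8 markers of simple epithelia 7 reached 1 CPM, the exception being Cdh1 (0.195 and 0.535 CPM), and the sums were 705 to 918 and 727 to 910 CPM. In this list 2 genes rose and none fell. They were Cldn4 (44.0 to 77.25 CPM, edgeR adjusted p = 1.24e-06) and Cdh1 (adjusted p = 0.0254). A list of 6 fibroblast markers summed to 3090 to 3590 CPM in the controls and 2760 to 3200 CPM with NaCl, mostly Col1a1 (2492 and 2148 CPM). Of its 5 tested genes Col1a1 and Pdgfra (2.38 and 1.5 CPM) fell, and Col3a1 (381 and 459 CPM), Col1a2 (434 and 406 CPM) and Dcn (15.8 and 14.9 CPM) did not pass the test. Leukocyte markers summed to 5.95 to 7.19 and 14.9 to 15.3 CPM. Ptprc rose from 4.055 to 13.5 CPM, Cd68 had 2.41 and 1.69 CPM and did not pass the test (edgeR adjusted p = 0.0573), and Cd3e and Adgre1 were among those not analysed here. Markers of the thick limb and proximal tubule summed to 164 to 207 and 159 to 180 CPM, mostly Lrp2 (185 and 162 CPM), and none of the 4 tested passed. Of 5 intercalated cell markers 1 was analysed, Atp6v0d2, which fell from 1.84 to 0.326 CPM (adjusted p = 7.08e-06). Endothelial markers were under 1 CPM in every library. The part of the cells marked by these lists in the differences above was not tested.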

How the data were processed

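The input was the table of raw counts that the authors deposited, with 1 row per Ensembl gene and 8 bulk RNA libraries. Trim Galore 0.6.7, STAR, DESeq2 1.34.0 and build mm10 are named in the submitters' processing notes. The counting program, annotation and strandedness are not given in the sources used here. No gene in the table had fewer than 19 counts over all libraries.

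The tests used edgeR 4.0.16 (R 4.3.3): filterByExpr at a minimum count of 10, TMM scaling, the robust quasi-likelihood fit of a model holding only the group, and Benjamini-Hochberg adjustment over 14024 genes. The 1264 genes removed included none of the 10 enzymes. Intervals are 95% intervals from that fit. CPM is a count divided by its library's TMM-scaled total and put on a common scale, with 2 added as a prior count for log2 values. Exon lengths and coordinates came from GENCODE M21 (GRCm38), promoters from RefSeq, and shared sequence from blastn 2.17.0. The script was tested on a single draw of simulated counts, in which it recovered most of the changes put in but the share of false calls lay above the nominal threshold. Alternatives were other scalings and filters, DESeq2 1.42.0, limma-voom (limma 3.58.1), the library number as a covariate, a threshold of 0.01 and leaving out each library.

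The enzymes and lists were chosen with earlier results of these data known. Beside the 10 enzymes, the naming rule took from each list up to 3 called genes with the highest absolute log2 fold change at 1 CPM or more, and the 3 genes nearest to Ugcg in pattern. Some genes of these lists are not reported here by name. With 4 libraries per group and depths above 35 M counts, single genes were measured with standard errors of 0.033 to 0.071 on the log2 scale for the 10 enzymes.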

Additional observations from a re-analysis of the deposited data

Results flagged for a closer look

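In NaCl replicate 5 the log2 ratio of Sgms2 to Sgms1 counts was 0.144, where the other NaCl libraries lay between 0.222 and 0.23, a gap large for a group of 4. Without that library the difference between the groups was 0.21, beside 0.19 with it. Of 66 groups of 4 values examined, this 1 stood out, where about 3.3 arise by chance.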

How the results depend on the processing

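No paired analysis was possible because the library numbers run from 1 to 8 and are not shared between the groups. The number of genes called was 4789, and 3145 at an adjusted p-value under 0.01. The fallen enzymes numbered 3 under each alternative except the linear drift over libraries 1 to 8, which left 2. The number of risen enzymes was 1, became 2 with the linear drift and 0 at a threshold of 0.01, and was 0 to 1 when a library was left out. Ugcg and Sgms1 kept their direction and call in every fit, the Ugcg log2 fold change lying between -0.63 and -0.56 without each library or with the drift. With the drift the log2 fold changes of Cers2 (0.035), Cers4 (-0.11), Smpdl3b (0.014), Sphk2 (-0.007) and Tecr (-0.017) took the other sign, and the cause was not tested. Of 34 called genes in the pathway lists, 26 kept their call without each library in turn and 18 with the drift, which called 3382 of all tested genes. The 7 ratios moved by less than their spread with 10 added to each count and without each library, and were not recomputed with the drift. The drift and the group are partly confounded, since all NaCl libraries carry the higher numbers. For Sptlc1, Sptlc2, Kdsr, Cers2, Degs1 and Sgms2 the 95% interval of the log2 fold change included 0, so these libraries do not settle their direction.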
